A study of Homo sapiens with 13 samples.

Results

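The 7 genes described here are the glucocorticoid receptor gene NR3C1, 5 genes known to respond to the receptor (FKBP5, TSC22D3, ZBTB16, SGK1 and KLF9) and HSD11B1, whose enzyme makes the receptor's ligand inside the cell. They were chosen by name, and each symbol matched 1 Ensembl identifier among the 43836 genes of the count table. Their expression was followed in 12 mRNA-seq libraries of hFOB 1.19 cells, a human fetal osteoblast line immortalized with a temperature-sensitive viral antigen. The positive controls (2 libraries) were grown with 10% fetal bovine serum, and the negative controls (2 libraries) without serum. Per the study's methods both control groups carried the DMSO vehicle. The remaining groups were serum-free cells given 1 µg/mL of a plant compound: resveratrol, a stilbene (RES, 3 libraries), peonidin-3-O-glucoside, an anthocyanin (POG, 3 libraries), or the compound labelled DEG (2 libraries). The treatment notes list delphinidin-3-glucoside beside the other compounds but do not tie it to the label DEG. All groups are cultures of a single cell line, and the labels do not say whether libraries of a group came from separate cultures, so p-values measure only the spread between these libraries. No glucocorticoid is listed among the treatments of any group.

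Glucocorticoids such as cortisol enter the cell and bind the glucocorticoid receptor, which waits in the cytoplasm in a complex with HSP90 and its cochaperones. The bound receptor moves to the nucleus, attaches to DNA as a dimer at glucocorticoid response elements and raises or lowers the transcription of nearby genes. The level of ligand in a cell also depends on the 11-beta-hydroxysteroid dehydrogenases, of which HSD11B1 turns inactive cortisone into cortisol and HSD11B2 does the reverse. In bone, osteoblasts are a main target of glucocorticoids, and an excess of the hormones lowers bone formation. Serum contains steroid hormones, and serum-free medium does not supply them.

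The textbook palindromic response element was searched for in the hg38 genome as the hexamer AGAACA, 3 bases of any kind and the reverse complement TGTTCT, a pattern that reads the same on both strands. Within the members' gene bodies and 10 kb on either side, 942 kb in all, 1 exact match was found, in FKBP5, where the genome as a whole held 0.188 exact matches per Mb. With at most 1 mismatch among its 12 fixed bases, a match within 10 kb of a RefSeq start site was found for TSC22D3 and for no other of the 6 members with a listed start. Of all 35116 RefSeq start sites searched, 0.387% had an exact match and 8.86% a match with at most 1 mismatch at that distance. Counted by gene, as for the members, the shares were 0.388% and 9.53% of 27305 genes. Both sites lie in introns and are the only matches that these searches returned for the members. The FKBP5 site lies 126 kb from the annotated start of the gene, and the TSC22D3 site 7.94 kb from its nearest RefSeq start. They are given on the strand of the gene, with the 15 bases matched to the element in capitals.
FKBP5 intron, chr6:35602062-35602116, minus strand: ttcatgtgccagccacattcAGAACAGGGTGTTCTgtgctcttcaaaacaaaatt
TSC22D3 intron, chrX:107767824-107767878, minus strand: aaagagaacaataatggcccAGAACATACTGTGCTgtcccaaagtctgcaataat
A match to these letters is not evidence that the receptor binds there in these cells.

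The libraries held 38464619 to 51416358 counted reads. Of 10 osteoblast markers, 8 averaged at least 1 CPM (a read count relative to its library total, scaled between libraries by edgeR's TMM factors), led by COL1A1, COL1A2 and SPARC. These 3 genes make up most of the summed list. ALPL reached at most 6.66 CPM, SPP1 2.34 CPM, BGLAP 2.00 CPM and DLX5 1.84 CPM in any library. SP7 did not exceed 0.181 CPM in any library, and IBSP had 1 read in all libraries. The marker lists of 6 other cell types, each summed on its own, reached at most 8.1 CPM in a library, against at least 4751 CPM for the osteoblast list. Some of these lists differed between groups. The endothelial list stood at 1.80 to 1.96 CPM in positive controls, 4.60 to 5.05 CPM in negative controls and 6.21 to 8.1 CPM in RES, while its marker CDH5 stayed at or below 0.112 CPM. The chondrocyte list, led by SOX9, stood at 6.47 to 6.53 CPM in positive controls, 2.94 to 5.15 CPM in negative controls and 2.36 to 2.69 CPM in POG. The blood list, led by CD14, stood at 1.52 to 1.59 CPM in positive controls, 0.904 to 0.980 CPM in negative controls and 0.340 to 0.731 CPM in POG. The part of these lists in the results was not tested. In such bulk RNA, fewer cells that express a gene and less RNA per cell cannot be told apart.

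Of the 7 genes, 6 passed the filter on low counts and 1, ZBTB16, had 0 reads in every library. ZBTB16 (ENSG00000109906; hg38 chromosome 11, 114059041 to 114256765) encodes a zinc-finger transcription factor that many cell types switch on steeply when glucocorticoids are added. A count of 0 over all libraries allows a level of up to 0.0058 CPM, or 0.078 CPM in the smallest library, counting error only. At this depth no ZBTB16 mRNA was detectable with serum, without it or with any compound.

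NR3C1 (ENSG00000113580; hg38 chromosome 5, 143277931 to 143435512, minus strand) was the most abundant member. Per kb of exons it averaged 22.4 CPM, more than 88.2% of the 17092 genes tested. It stood at 171 and 190.3 CPM with serum, 220.3 and 225 CPM without, 236, 231 and 229 CPM with RES, 195, 191 and 190.3 CPM with POG, and 189 and 196 CPM with DEG. The RES and negative control libraries formed the high end without overlapping any other group, and the DEG libraries overlapped the POG libraries and the upper serum library. As compared with negative controls, NR3C1 fell by 18.9% with serum (log2 fold change −0.30, SE 0.0377, edgeR FDR 4.66e-11). It fell by 13.5% with POG (log2 fold change −0.21, SE 0.0343, edgeR FDR 3.93e-06) and by the same percentage with DEG (SE 0.0379, edgeR FDR 6.67e-05). With RES it did not pass (log2 fold change 0.06, 95% interval −0.01 to 0.13, edgeR FDR 0.383).

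HSD11B1 (ENSG00000117594; hg38 chromosome 1, 209686178 to 209734949, plus strand) had the widest range of the members. Its 3.69-fold span between the lowest and the highest group mean compares with 1.06-fold for FKBP5. The gene stood at 7.32 and 5.74 CPM with serum, on 362 and 242 reads, and at 24.6 and 23.6 CPM without serum, on 951 and 938 reads. It stood at 17.9, 17.5 and 17.9 CPM with RES, 16.4, 18.1 and 16.3 CPM with POG, and 16.4 and 17.2 CPM with DEG. Every library given a compound lay below both negative controls and above both positive controls. HSD11B1 fell by 72.7% with serum (log2 fold change −1.87, SE 0.0911, edgeR FDR 7.72e-97), and 1.19% of tested genes had a larger absolute change in that comparison. As compared with negative controls it fell by 26.1% with RES (−0.44 on the log2 scale, SE 0.0729, edgeR FDR 8.03e-08), by 29.7% with POG (−0.51, SE 0.0731, edgeR FDR 9.26e-11) and by 30.1% with DEG (−0.52, SE 0.0820, edgeR FDR 8.93e-09). It was the only member called with serum and with each of the compounds. These comparisons share the negative control libraries.

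**Figure D1:**
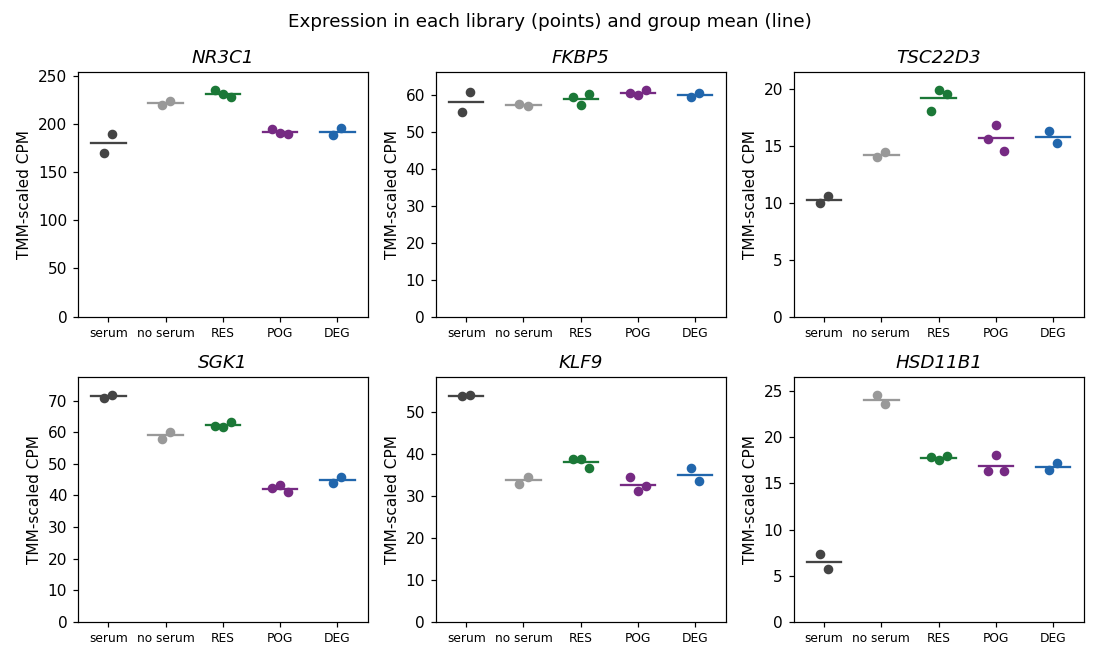
TMM-scaled CPM (vertical axes, from 0) of the 6 members with reads, by group (horizontal axes; serum is the positive and no serum the negative control). Points are libraries and lines are group means. HSD11B1 is lowest with serum, SGK1 is lowest with POG and DEG, TSC22D3 is highest with RES, and FKBP5 lies between 55.4 and 61.3 CPM throughout.

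TSC22D3 (ENSG00000157514; hg38 chromosome X, 107713221 to 107777342, minus strand) encodes GILZ, a leucine zipper protein that carries part of the anti-inflammatory action of glucocorticoids. It stood at 9.97 and 10.6 CPM with serum, 14.02 and 14.5 CPM without, and 18.1, 19.95 and 19.6 CPM with RES. With POG it stood at 15.7, 16.9 and 14.6 CPM and with DEG at 16.3 and 15.3 CPM. The RES libraries were the highest of the 12 and the serum libraries the lowest. TSC22D3 rose 1.35-fold with RES (0.43 on the log2 scale, SE 0.0764, edgeR FDR 9.24e-07) and fell by 27.8% with serum (−0.47, SE 0.0887, edgeR FDR 9.19e-07). With POG and DEG every library exceeded both negative controls, but the changes did not pass (0.14, 95% interval −0.01 to 0.29, edgeR FDR 0.249, and 0.15, −0.02 to 0.32, edgeR FDR 0.326). NCBP2L, on the other strand, covers 1.43% of the exon bases of TSC22D3, and whether reads were counted by strand is not given in the sources used here.

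SGK1 (ENSG00000118515; hg38 chromosome 6, 134169248 to 134318112, minus strand) encodes a kinase induced by serum and by glucocorticoids, from which its name comes. Its levels were 70.9 and 71.7 CPM with serum, 57.7 and 60.2 CPM without, and 62.1, 61.6 and 63.3 CPM with RES. The POG libraries stood at 42.3, 43.1 and 41.0 CPM and the DEG libraries at 43.8 and 45.7 CPM. The groups formed separate bands, with serum highest and every POG and DEG library below every other. SGK1 rose by 0.27 on the log2 scale with serum (SE 0.0459, edgeR FDR 5.84e-08). It fell by 28.5% with POG (log2 fold change −0.48, SE 0.0434, edgeR FDR 2.68e-24) and by 24.1% with DEG (−0.40, SE 0.0482, edgeR FDR 3.51e-13). With RES it did not pass (0.08, 95% interval −0.00 to 0.16, edgeR FDR 0.262).

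KLF9 (ENSG00000119138; hg38 chromosome 9, 70384604 to 70414657, minus strand) encodes a Krüppel-like transcription factor that the receptor induces directly in several tissues. It stood at 53.9 and 54.1 CPM with serum and at 33.0 and 34.5 CPM without. With RES it stood at 38.8, 38.9 and 36.8 CPM, with POG at 34.7, 31.3 and 32.3 CPM, and with DEG at 36.7 and 33.6 CPM. The serum libraries stood well above all others, and the POG and DEG libraries overlapped the negative controls. KLF9 rose 1.598-fold with serum (log2 fold change 0.68, SE 0.0565, edgeR FDR 7.03e-30). With RES it rose by 0.17 on the log2 scale (SE 0.0534, edgeR FDR 0.0185), a call lost when 1 library was left out: the FDR was 0.289 without negative control replicate 1, 0.0575 without replicate 2, 0.0777 without RES replicate 1 and 0.0823 without RES replicate 2. With POG (−0.04, edgeR FDR 0.698) and DEG (0.06, edgeR FDR 0.677) it was not called.

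FKBP5 (ENSG00000096060; hg38 chromosome 6, 35573585 to 35728583, minus strand) encodes an HSP90 cochaperone that lowers the receptor's affinity for hormone and is itself induced by it. Its levels were 55.4 and 60.7 CPM with serum, 57.7 and 57.1 CPM without, and 59.4, 57.4 and 60.2 CPM with RES. With POG they were 60.4, 60.0 and 61.3 CPM and with DEG 59.4 and 60.6 CPM. The serum libraries overlapped every other group. FKBP5 was not called against the negative control, with log2 fold changes of 0.02 with serum (95% interval −0.08 to 0.11, edgeR FDR 0.83), 0.04 with RES (−0.05 to 0.13, FDR 0.681), 0.08 with POG (−0.01 to 0.16, FDR 0.276) and 0.06 with DEG (−0.03 to 0.16, FDR 0.519).

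With serum, 5 of 6 tested members were called, 2 higher (SGK1 and KLF9) and 3 lower (NR3C1, TSC22D3 and HSD11B1), where 42.4% of all tested genes were called, 21.4% higher and 20.9% lower. With RES, 3 of 6 were called (TSC22D3 and KLF9 higher, HSD11B1 lower) beside 11.2% of all genes (4.94% higher and 6.21% lower). With POG, 3 of 6 were called, all lower (NR3C1, SGK1 and HSD11B1), where 14.5% of all genes were called, 5.93% higher and 8.57% lower. With DEG the same 3 genes were called lower, beside 9.63% of all genes called, 3.52% higher and 6.11% lower. The median absolute log2 fold change of the 6 members was 0.39 for serum, 0.13 for RES, 0.17 for POG and 0.18 for DEG, as compared with 0.21, 0.10, 0.11 and 0.10 over all tested genes.

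**Figure D2:**
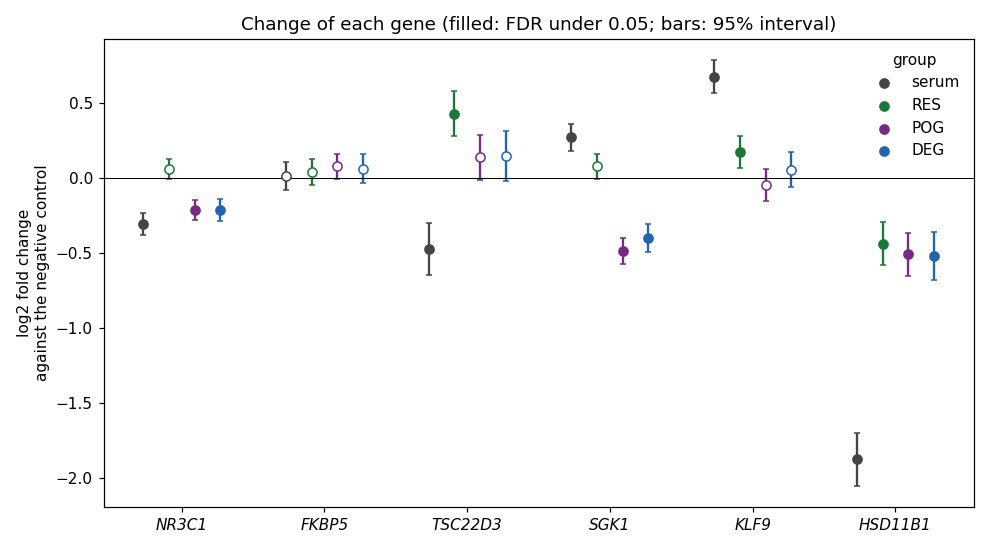
Log2 fold change of each member against the negative control (vertical axis) with serum, RES, POG and DEG. Filled points passed an edgeR FDR of 0.05, open points did not, and bars are 95% intervals. HSD11B1 with serum, at −1.87, lies farthest from 0, and SGK1 and KLF9 with serum lie above 0.

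The compounds were given at the same mass concentration, 1 µg/mL, and were compared directly on that basis. Their molar concentrations are not given in the sources used here and may differ. Compound and molar dose therefore cannot be told apart. POG and RES differed in 4 of 6 members, all lower with POG, where 27.9% of all tested genes differed and 14.1% were lower. SGK1 differed most (log2 fold change −0.56, SE 0.0385, edgeR FDR 4.23e-43), followed by TSC22D3 (−0.29, SE 0.0658, FDR 9.11e-05), NR3C1 (−0.27, SE 0.0306, FDR 8.55e-13) and KLF9 (−0.22, SE 0.0469, FDR 5.80e-05). HSD11B1 (−0.07, 95% interval −0.20 to 0.06) and FKBP5 (0.04, −0.04 to 0.11) did not pass. DEG and RES differed in 3 members, SGK1 (−0.48), TSC22D3 (−0.28) and NR3C1 (−0.27), all lower with DEG, where 21.2% of all genes differed and 10.8% were lower. The TSC22D3 call was lost without DEG replicate 2 (FDR 0.0983). RES, the stilbene, stood apart from both other compounds in NR3C1, TSC22D3 and SGK1.

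DEG and POG differed in 0 of 6 members by the exact test, by edgeR's quasi-likelihood test and by DESeq2, and 0 had an unadjusted p under 0.05. Over all genes 1.05% differed. For NR3C1 the difference was −0.00 (95% interval −0.07 to 0.07), for HSD11B1 −0.01 (−0.16 to 0.14), for TSC22D3 0.01 (−0.14 to 0.16) and for FKBP5 −0.01 (−0.10 to 0.07). The intervals of SGK1 (0.09, −0.00 to 0.17) and KLF9 (0.10, −0.00 to 0.21) reached furthest from 0.

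The groups were ordered by mean CPM. Below, 2 groups are said to differ where the exact test called the gene at an FDR under 0.05. With 2 or 3 libraries in a group, a pair that was not called is not shown to be equal. For NR3C1 the order was RES, negative control, POG, DEG and positive control, and of neighbouring groups only negative control and POG differed. For HSD11B1 it was negative control, RES, POG, DEG and positive control, and RES, POG and DEG did not differ from one another. For TSC22D3 it was RES, DEG, POG, negative control and positive control, in which no pair of DEG, POG and the negative control was called. For SGK1 it was positive control, RES, negative control, DEG and POG, in which neither RES and the negative control nor DEG and POG differed. For KLF9 the positive control stood above RES (log2 fold change of RES −0.50, edgeR FDR 3.20e-21). Below it came RES, DEG, negative control and POG, in which no neighbouring pair was called. Of pairs further apart, RES was called above the negative control (0.17, edgeR FDR 0.0185), which did not hold without some single libraries. POG was called below RES (−0.22, edgeR FDR 5.80e-05). For FKBP5 it was POG, DEG, RES, positive control and negative control, and none of the 10 pairings was called by the exact test. As compared with positive controls, 5 of 6 members were called with RES, 5 with POG and 4 with DEG, where 45.7%, 47.9% and 43.4% of all genes were called. The smallest gap called between a compound and serum was NR3C1 with POG (0.09, edgeR FDR 0.044), which was lost without positive control replicate 1 (0.01, FDR 0.811) and without any of the POG libraries. The matching difference for DEG did not pass (0.09, edgeR FDR 0.0757), though it passed without positive control replicate 2 (0.17, FDR 6.12e-06).

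Receptor and enzyme were set beside their counterparts per kb of exons, since reads depend on transcript length. The length counts every annotated exon of a gene, not the transcript expressed here, so folds between genes depend on the annotation. NR3C1 exceeded NR3C2, which encodes the mineralocorticoid receptor, 14.6-fold to 19.5-fold in single libraries, and the ratio of the 2 genes averaged 17.5 with serum and 17.3 without. HSD11B1 averaged 15.9 CPM per kb in negative controls and 4.32 CPM per kb in positive controls. HSD11B2, the enzyme that inactivates cortisol, stood at 0.138 and 0.111 CPM per kb there, on 13 to 15 reads in a library. Over the libraries of all groups it had 5 to 23 reads, so ratios to it rest on few reads. FKBP4, a cochaperone that favours transport of the receptor to the nucleus, exceeded its relative FKBP5 by 7.27-fold with serum, 6.17-fold without and 5.04-fold with RES. Before the division by length, FKBP4 averaged 204 CPM and FKBP5 58.1 CPM with serum. All 3 RES ratios, 4.93 to 5.23, lay below the lowest ratio of any other group (5.48, in POG).

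**Figure D3:**
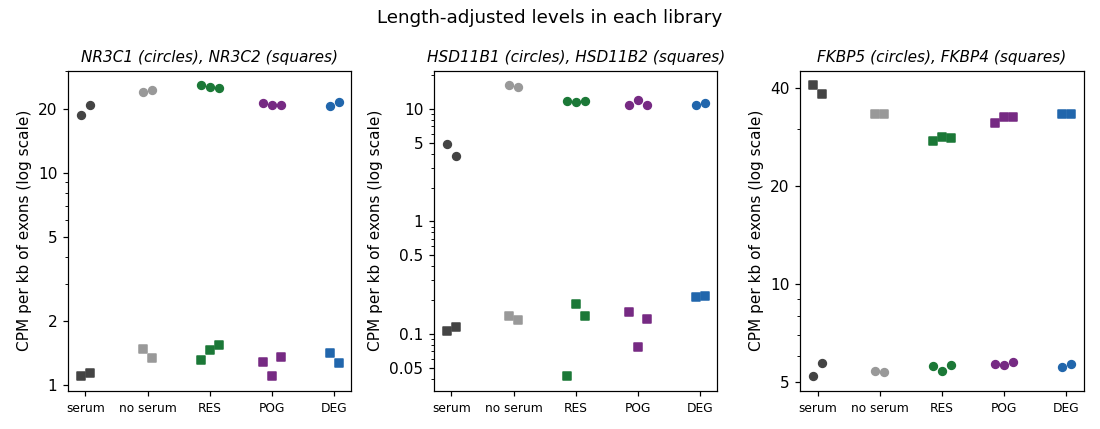
CPM per kb of exons on a log axis for NR3C1 and NR3C2, HSD11B1 and HSD11B2, and FKBP5 and FKBP4, with a point per library in each group. NR3C1 and HSD11B1 lie above their counterparts in every library, HSD11B1 approaches HSD11B2 most with serum (32.9-fold in 1 library), and FKBP4 is lowest with RES.

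The machinery around the receptor was described with a list of 11 chaperones, co-regulators and steroid enzymes, all of which were tested. With serum 10 of 11 were called, 6 higher and 4 lower, beside 42.4% of all tested genes. HSP90AB1, a constitutive HSP90 gene, stood at 817 ± 4.98 CPM in negative and 1112 ± 42.5 CPM in positive controls (SD, 2 libraries each), a log2 difference of 0.44 (edgeR FDR 1.37e-34). On the log2 scale the coactivator NCOA2 fell by 0.53 and NR3C2 fell by 0.33 with serum. With RES 4 were called, beside 11.2% of all genes, and all 4 were lower: FKBP4 (−0.25, edgeR FDR 9.78e-10), STIP1 (−0.15), PTGES3 (−0.15) and HSP90AA1 (−0.12). HSP90AB1 was not called with RES (0.05, edgeR FDR 0.379). FKBP4 went from 172 ± 0.0930 CPM in negative controls to 144 ± 1.72 CPM with RES (SD, n = 2 and 3). With POG 1 was called, HSP90AA1, which was higher (0.13), where 14.5% of all genes were called. With DEG, where 9.63% of all genes were called, 0 were called by the exact test, the quasi-likelihood test or DESeq2, while 1 had an unadjusted p under 0.05.

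Another list held 28 genes that glucocorticoids induce in many cell types, of which 23 were tested. With serum 18 were called, 10 higher and 8 lower (all genes: 21.4% higher and 20.9% lower), with a median log2 fold change of 0.08 as compared with −0.01 over all genes. CRISPLD2, a secreted protein gene, stood at 4.74 ± 0.126 CPM in negative and 9.05 ± 0.178 CPM in positive controls (SD, 2 libraries each), a log2 difference of 0.93 (edgeR FDR 2.19e-13). ANXA1, which encodes the anti-inflammatory annexin A1, rose by 0.82 and the metallothionein gene MT1X by 0.82. The clock gene PER1 and the repressor BCL6 fell by 0.69 and 0.71 on the log2 scale. With RES 8 of 23 were called, 2 higher and 6 lower (all genes: 4.94% and 6.21%), among the lower ones the cell cycle inhibitor gene CDKN1C (−0.35, edgeR FDR 0.0276). With POG 13 were called, 2 higher and 11 lower, beside 5.93% and 8.57% of all genes, and the median was −0.15 against 0.00 over all genes. With DEG 8 were called, 2 higher and 6 lower, beside 3.52% and 6.11% of all genes, and the median was −0.10 against 0.00. ANGPTL4, an inhibitor of lipoprotein lipase, stood at 64.7 ± 1.26 CPM in negative controls (SD, n = 2). It rose by 0.75 with serum and fell by 0.80 with RES, by 1.02 with POG and by 0.49 with DEG on the log2 scale. FBXO32, the ubiquitin ligase atrogin-1, fell by 0.48 with POG and by 0.33 with DEG, and RASD1, a gene of a Ras-like GTPase, fell by 0.40 with POG (edgeR FDR 0.0491). The mTOR inhibitor gene DDIT4 fell by 0.34 with DEG and was also called lower with RES (−0.15) and POG (−0.22). ANXA1 rose with RES (0.30, edgeR FDR 3.55e-10) and fell with POG (−0.31, edgeR FDR 4.65e-10).

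The last list held 14 genes that glucocorticoids repress in many cell types, mostly inflammatory mediators, of which 13 were tested and TNF was not. With serum 9 were called, 4 higher and 5 lower, beside 21.4% and 20.9% of all genes. IL1B, a proinflammatory cytokine, stood at 316 ± 0.120 CPM in negative and 967 ± 41.1 CPM in positive controls (SD, 2 libraries each), a log2 difference of 1.61, and CSF2, a myeloid growth factor, rose by 1.36. With RES 6 were called, 2 higher and 4 lower (all genes: 4.94% and 6.21%), among the lower ones PTGS2, the inducible cyclooxygenase (−0.39, edgeR FDR 2.39e-16). With POG and with DEG 10 were called, 1 higher (ICAM1, an adhesion molecule) and 9 lower, with medians of −0.23 and −0.22 against 0.00 over all genes in both. Over all genes 5.93% were higher and 8.57% lower with POG, and 3.52% and 6.11% with DEG. The chemokine CCL2 went from 287 ± 0.585 CPM in negative controls to 182 ± 5.08 CPM with DEG (SD, 2 libraries each), a log2 difference of −0.66 (edgeR FDR 4.97e-57). CCL2 was also called lower with serum (−0.42), RES (−0.28) and POG (−0.51), and PTGS2 with serum (−0.24), POG (−0.30) and DEG (−0.34). IL6 fell by 0.73 with POG and was also called lower with DEG (−0.66) and serum (−0.41), but it was not called with RES (0.05). The collagenase MMP1 and stromelysin MMP3 fell with serum and with each compound.

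**Figure D4:**
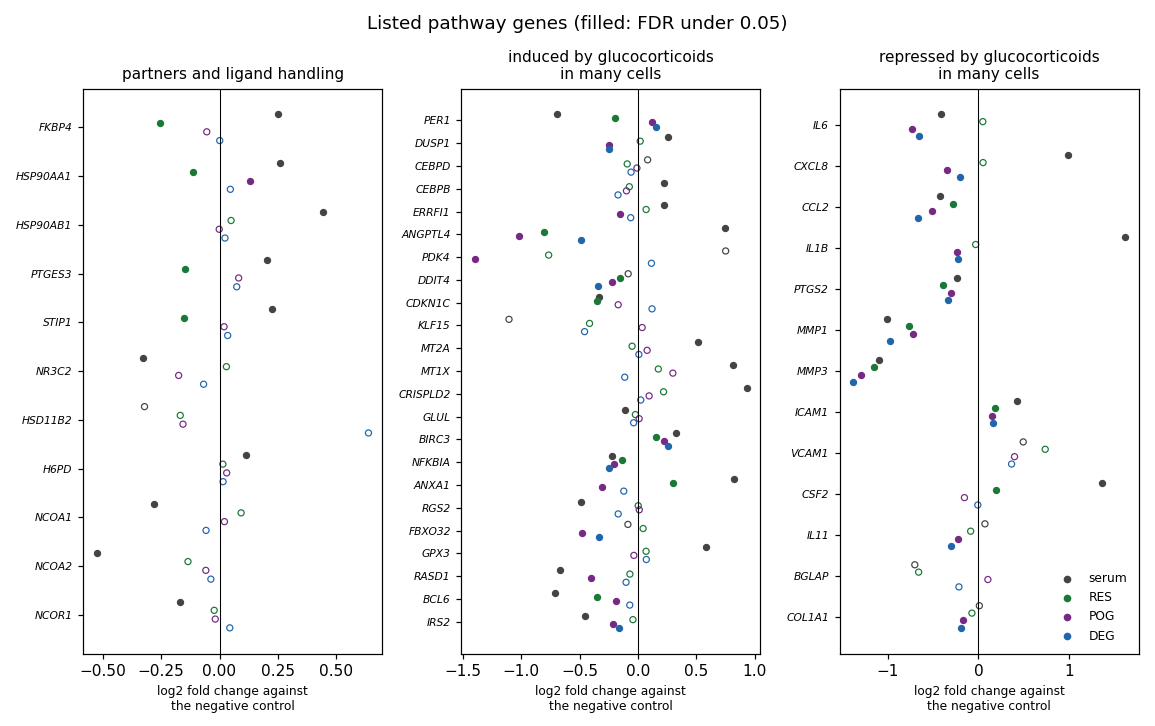
Log2 fold change against the negative control (horizontal axes) of the tested genes of the 3 lists, by group. Filled points passed an edgeR FDR of 0.05. In the left panel the serum points of the chaperone genes lie above 0 and those of RES mostly below, and in the right panel most POG and DEG points lie below 0.

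Among 13400 other genes averaging 1 CPM or more, those whose log2 CPM followed each member most closely over the 12 libraries were named, as a description. Libraries of a group share their treatment, so the points are not independent. For NR3C1 they were RAB27B (Pearson r 0.987), PRICKLE2 (0.979) and ARHGAP26 (0.976), and for HSD11B1 they were TSPAN9 (0.991), DENND2A (0.986) and EMILIN1 (0.984). SGK1 was followed by PRSS23 (0.990), ENG (0.989) and FGF1 (0.988), and KLF9 by ETS1 (0.986), SCUBE3 (0.984) and DDAH1 (0.981). TSC22D3 was followed by ZFP28, RGS9 and LAMB2 (0.963, 0.963 and 0.959). FKBP5, which hardly varied, had the weakest best match, ERI2 (0.919), followed by EFR3B and ZNF106 (0.874 for both). These 3 genes spread most between the 2 serum libraries, where FKBP5 did too: ZNF106 had an SD of 22.3 CPM there, with group means of 141 to 154 CPM. Among the members themselves, SGK1 and KLF9 had the highest correlation (0.745), KLF9 and HSD11B1 the lowest (−0.899), and FKBP5 and NR3C1 were close to 0 (−0.07).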

How the data were processed

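Libraries of polyA-selected RNA were made with a Universal Plus mRNA-Seq kit and sequenced as read pairs on a NovaSeq. The authors deposited raw read counts per Ensembl gene, made per their methods with STAR (BWA MEM was also named), hg38 and featureCounts. Versions, annotation release, strand setting and the treatment of multi-mapped reads are not given in the sources used here. Of 13 labelled samples 12 had a column; DEG replicate 3 was not analysed here. Every column belonged to a labelled sample, and replicate numbers, given in accession order, are only names.

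Genes were filtered with filterByExpr by group, which kept 17092 genes with 99.967% of reads, and scaled by TMM in edgeR 4.0.16 (R 4.3.3). Groups were compared in all 10 pairings with the exact test named in the study's methods, taking dispersions from all 12 libraries and adjusting p-values after Benjamini and Hochberg over all tested genes. A gene was called at an FDR under 0.05. Standard errors came from the quasi-likelihood fit, and 95% intervals are normal limits around the log2 fold change. CPM were scaled by TMM, and exon lengths and coordinates came from GENCODE v44 (hg38). Start sites for the motif search came from a RefSeq table (GRCh38.p14).

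Counts were simulated for 17092 genes with serum against negative control. Changes of 0.3, 0.5 and 1 on the log2 scale were given to 67, 67 and 66 genes drawn at random. Of these 47.8%, 68.7% and 71.2% were recovered, with 9 false calls. The genes were drawn at any expression level and were few beside the 42.4% called in the real comparison. The rates are therefore no measure of how well a change in a member would be found. Members and lists were chosen with earlier results of these data known, and give no independent support; 1 listed gene is not reported here. From each list and comparison with the negative control, the 3 largest called changes with a mean of at least 1 CPM were named, and for each member the 3 genes most like it; PER1, ICAM1 and further comparisons of the named list genes (HSP90AA1, BCL6, ANXA1 and ANGPTL4 among them) were added after their values were seen. Alternatives were the quasi-likelihood test, DESeq2 1.42.0, other scalings, filters and dispersions, and leaving out each library.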

Additional observations from a re-analysis of the deposited data

How the results depend on the processing

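No paired analysis was possible because replicates were numbered by accession order, which pairs no samples. No called fold change of a member reversed under any alternative. In the comparisons with the negative control, the calls of NR3C1, HSD11B1, TSC22D3 and SGK1 all held under the 7 other settings and without any single library, and only KLF9 with RES was lost, without either negative control or RES replicate 1 or 2, which took that count from 3 to 2. The count of members called for DEG against RES went from 3 to 2 without DEG replicate 2. Scaling by plain library totals called FKBP5 for POG against positive control (0.13, FDR 0.0117), as did leaving out positive control replicate 2 (0.12, FDR 0.0224), and called NR3C1 for DEG against positive control (0.15, FDR 0.002), as did the quasi-likelihood test (FDR 0.0472). NR3C1 for POG against positive control was lost with DESeq2 (FDR 0.0502) and with dispersions from those groups alone (FDR 0.144). The number of listed pathway genes called for DEG against POG moved from 5 to 12 with dispersions from those groups alone, and to between 1 and 4 when a library was left out (1 without either DEG library and 2 without POG replicate 2), for reasons not tested. The sign of an uncalled change near 0 differed in 15 cases.

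The count over all genes moved by more than 1.5 times in places. With RES it went from 1906 to 881 and 937 without negative control replicate 1 and 2, with POG from 2478 to 1362 and 1364, and with DEG from 1646 to 895 and 931. Without DEG replicate 1 and 2 it was 850 and 894 for DEG against negative control, 2068 and 2208 (of 3616) for DEG against RES, and 32 and 36 (of 179) for DEG against POG. That last count was also 87, 95 and 100 without POG replicate 1, 2 and 3, 116 with no filter and 838 with dispersions from those groups alone, and DEG against negative control gave 2573 with such dispersions. Scaling by plain totals moved the share of higher calls from 50.6% to 41.0% with serum, from 44.3% to 64.0% with RES, from 40.9% to 56.0% with POG and from 36.6% to 49.3% with DEG, and from 49.2%, 49.6% and 48.7% to 65.2%, 63.3% and 62.3% for RES, POG and DEG against positive control, while the median of all genes shifted by at most 0.07.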

Other observations

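ARHGAP26, which is among the genes most like NR3C1 over the libraries, is also its neighbour in the genome. It lies on hg38 chromosome 5 from 142770377 to 143229011 on the plus strand, and its annotated end is 48.9 kb from the end of NR3C1 on the minus strand. ARHGAP26 stood at 47.2 ± 0.347 CPM in negative controls and 31.5 ± 1.35 CPM with serum (SD, n = 2 and 2), at 48.3 ± 0.913 CPM with RES and 36.3 ± 0.654 CPM with POG (SD, n = 3 and 3), and at 36.5 ± 0.986 CPM with DEG (SD, n = 2). Its log2 fold change against the negative control was −0.58 with serum (edgeR FDR 5.10e-26), −0.38 with POG (FDR 3.34e-13) and −0.37 with DEG (FDR 6.79e-10), where NR3C1 had −0.30, −0.21 and −0.21, and it was not called with RES (0.03, FDR 0.765). Of the 18 genes listed as most like a member, it was the only one on its member's chromosome. The pairing was noticed after the values were seen, and no cause was tested.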
